A study of Mus musculus with 15 samples.

Results

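The serotonin neurons of the raphe nuclei lie along the midline of the midbrain and hindbrain, so a piece of brain carries their transcripts only where it holds that tissue. They make serotonin from tryptophan with the enzyme encoded by Tph2, take it back up through the transporter encoded by Slc6a4, and owe much of this programme to the ETS transcription factor encoded by Fev (Pet-1), with Gata2, Gata3 and Lmx1b acting beside or before it. Within the brain Tph2, Slc6a4 and Fev are standard marks of these cells.

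Libraries of mouse brain mRNA were selected on their measured level of Tph2. Among the control, MPTP and levodopa libraries without high Gabra6, a marker of cerebellar granule cells, those with Tph2 at 40 CPM or more (the read count scaled to the library's total) were called Tph2-rich and those with Tph2 under 10 CPM Tph2-poor. This gave 3 Tph2-rich libraries (control 3, levodopa 1 and MPTP 3) and 4 Tph2-poor libraries (control 1, levodopa 3, MPTP 1 and MPTP 2), 7 of the 15 libraries of the series and 7 of the 9 without inhibitor. The other 2 of those 9, control 2 and levodopa 2, had Gabra6 at 624 and 536 CPM, over the limit of 100 CPM, and were left out. Tph2 stood at 44.65 CPM in the rich library nearest to the limits and at 9.15 CPM in the poor library nearest to them, with 0 libraries in between.

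The series compares levodopa given at 2 mg/kg/day for 4 weeks after MPTP, and a BTK (Bruton tyrosine kinase) inhibitor given for 4 weeks after MPTP at a low dose of 1 µg/kg/day (labelled 25 pM) or a high dose of 2 µg/kg/day (labelled 50 pM), with MPTP alone and with controls on a normal diet. MPTP, a toxin of dopamine neurons, was dosed at 20 mg/kg/day over 1 week. The levodopa route is oral in the protocol and intraperitoneal in the sample label. Each of the 5 groups has 3 libraries, while the protocol gives 8 mice per group. The labels name the tissue as brain and give neither region, strain nor age. They also do not say whether each library is a separate mouse. Libraries held 58149722 to 68257095 counted reads, so 3 reads correspond to at most 0.0516 CPM.

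Tph2 chose the groups, and every gene of these 7 libraries was measured in the same tissue pieces. Differences between rich and poor libraries are therefore given as a description with no test. Because each treatment supplied 1 rich library and 1 or 2 poor ones, the grouping cuts across the treatments.

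The sequences just upstream of the 3 marker genes are shown because all 3 were higher in each Tph2-rich library than in any Tph2-poor one. They come from RefSeq (GRCm38.p6), read 5′ to 3′ on the gene's strand and end next to the gene. Capitals mark the GATA motif AGATAA. The sequence of Tph2 is chr10:115185023-115185272 on the minus strand, that of Slc6a4 is chr11:76998347-76998596 on the plus strand, and that of Fev is chr1:74885474-74885658 on the minus strand.
Tph2: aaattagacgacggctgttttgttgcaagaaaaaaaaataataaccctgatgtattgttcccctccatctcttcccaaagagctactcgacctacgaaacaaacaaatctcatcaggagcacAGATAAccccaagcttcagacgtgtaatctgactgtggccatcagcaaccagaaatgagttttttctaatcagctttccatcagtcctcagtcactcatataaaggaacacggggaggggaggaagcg
Slc6a4: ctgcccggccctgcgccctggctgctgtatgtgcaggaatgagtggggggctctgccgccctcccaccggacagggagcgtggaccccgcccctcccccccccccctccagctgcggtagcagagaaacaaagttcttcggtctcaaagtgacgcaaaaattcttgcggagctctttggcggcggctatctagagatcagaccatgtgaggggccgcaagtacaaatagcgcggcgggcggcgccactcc
Fev: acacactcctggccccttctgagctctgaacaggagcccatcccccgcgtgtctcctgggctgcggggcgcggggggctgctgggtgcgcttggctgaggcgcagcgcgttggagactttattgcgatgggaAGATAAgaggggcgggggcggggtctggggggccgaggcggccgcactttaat
The motif was searched on both strands (AGATAA or TTATCT) in the 250 bases before the start used by the RefSeq promoter table. It lies 128 to 123 bases before the start of Tph2 and 118 to 113 bases before that of Fev, and these letters are not in the Slc6a4 window. The ETS core CGGAA (or TTCCG) was found in the Fev window, 60 to 56 bases before the start, in a stretch that overlaps the gene's RefSeq interval and is not printed. AGATAA was in 10.25% and CGGAA in 25.44% of the 27025 mouse promoter windows of this length, so a match describes the sequence and no more.

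All 3 marker genes were higher in each Tph2-rich library than in any Tph2-poor one. Levels are given as TMM-scaled CPM, in which library totals are adjusted by edgeR's TMM factors. Tph2 (chromosome 10, 115078641 to 115185022) had 45.3, 109.8 and 65.8 CPM in control 3, levodopa 1 and MPTP 3, against 0.653, 8.85, 1.41 and 1.48 CPM in control 1, levodopa 3, MPTP 1 and MPTP 2. Slc6a4 (chromosome 11, 76998597 to 77032343), the serotonin transporter, had 25.1, 60.6 and 37.5 CPM in the same rich libraries, against 0.0891, 5.54, 0.790 and 0.483 CPM in the poor ones. Fev (chromosome 1, 74881501 to 74885473) had 1.13, 2.60 and 2.01 CPM in rich libraries, against 0.0297, 0.320, 0.146 and 0.0293 CPM in poor ones. Levodopa 1 was the highest and control 3 the lowest of the rich libraries for each of the 3 genes, and levodopa 3 was the highest of the poor libraries for each. The log2 ratios of the group means were 4.57 for Tph2, 4.57 for Slc6a4 and 3.86 for Fev, and without levodopa 3 they were 5.96, 6.499 and 4.80. In bulk tissue, fewer cells of a type and less RNA per cell cannot be told apart.

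**Figure D1:**
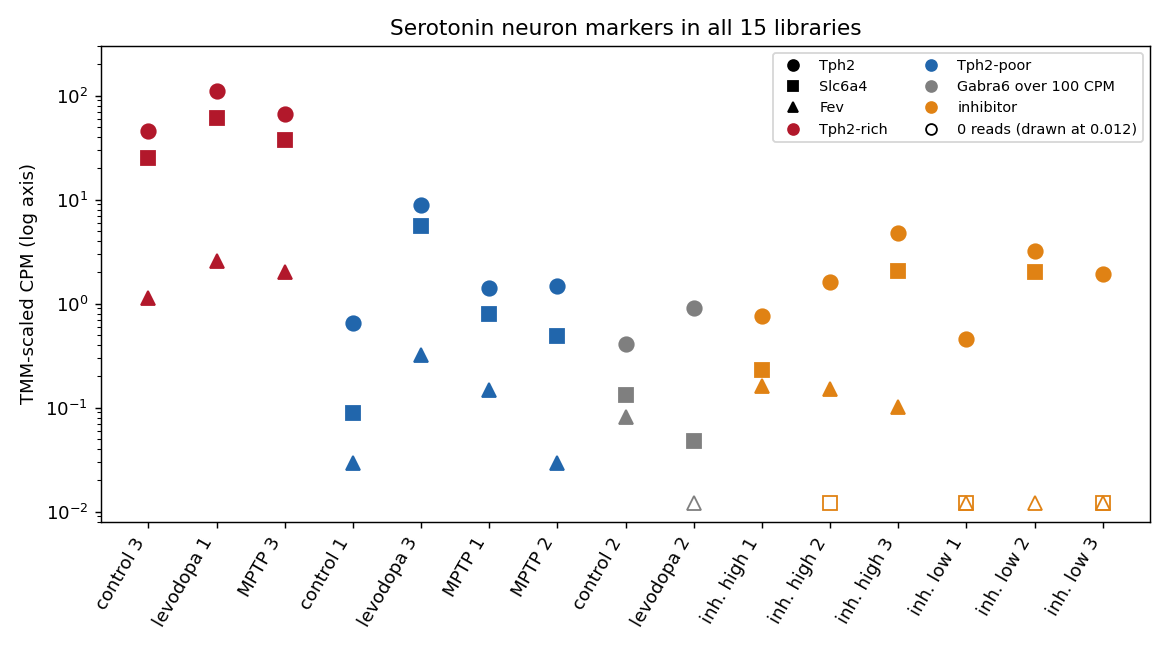
TMM-scaled CPM (log axis) of Tph2 (circles), Slc6a4 (squares) and Fev (triangles) in each of the 15 libraries, ordered as Tph2-rich, Tph2-poor, Gabra6 over 100 CPM and inhibitor. Tph2 lies between 45.3 and 109.8 CPM in the rich libraries and at 8.85 CPM or less in the other 12, and open marks at 0.012 stand for 0 reads.

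The serotonin transporter kept an almost fixed proportion to Tph2 across the rich libraries. Slc6a4 reads per 100 Tph2 reads were 55.5 in control 3 (exact 95% interval 52.3 to 58.9), 55.3 in levodopa 1 (53.2 to 57.4) and 56.9 in MPTP 3 (54.2 to 59.8), although Tph2 itself differed from 3048 to 7484 reads. Intervals cover counting error only. Reads are not scaled by gene length, so the proportion is compared between libraries and not read as a ratio of transcripts. In the poor libraries it was 62.6 (54.9 to 71.2) in levodopa 3, 56.3 (39.5 to 79.3) in MPTP 1, 32.7 (21.4 to 48.8) in MPTP 2 and 13.6 (4.75 to 32.1) in control 1, which had 44 Tph2 reads. Intervals of levodopa 3 and MPTP 1 overlap those of the rich libraries, and those of MPTP 2 and control 1 lie below them. Fev gave 2.49, 2.37 and 3.05 reads per 100 Tph2 reads in control 3, levodopa 1 and MPTP 3, also within overlapping intervals. In the poor libraries Fev gave 4.55 (0.534 to 17.4) in control 1 and 3.61 (2.25 to 5.52) in levodopa 3. MPTP 1 had 10.4 (4.84 to 20), above the rich intervals, and MPTP 2 had 1.98 (0.237 to 7.34). These values rest on 2 to 22 Fev reads.

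**Figure D2:**
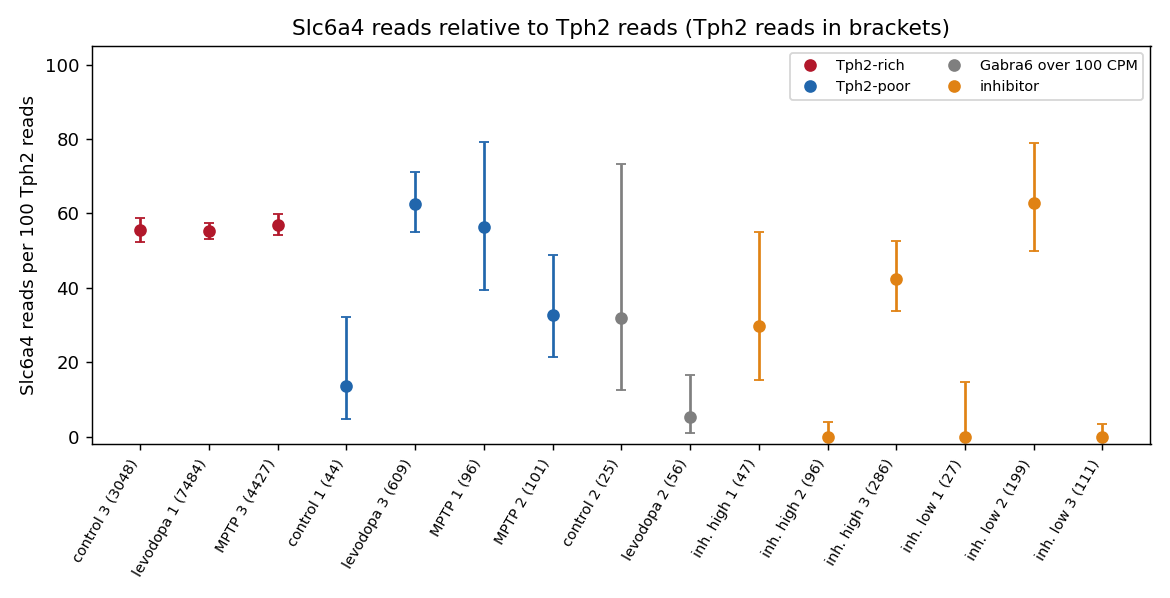
Slc6a4 reads per 100 Tph2 reads in each library, with exact 95% intervals for counting error as bars and the Tph2 reads in brackets. The 3 Tph2-rich libraries lie at 55.3 to 56.9, while the libraries with fewer Tph2 reads range from 0 to 62.8.

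Ddc and Slc18a2, which serotonin neurons share with other monoamine neurons, did not separate the libraries. Ddc, the decarboxylase that makes both serotonin and dopamine, had 50.4, 85.0 and 58.7 CPM in rich libraries and 13.8, 54.3, 59.5 and 70.4 CPM in poor ones. Slc18a2, the vesicular monoamine transporter, had 44.1, 95.7 and 60.2 CPM in rich libraries and 7.45, 55.2, 51.6 and 74.4 CPM in poor ones. For both genes control 1 was the lowest of the 7 libraries, and the other poor libraries lay among the rich ones. The dopamine transporter gene Slc6a3, a mark of midbrain dopamine neurons, had 55.3, 73.8 and 54.5 CPM in rich libraries and 5.11, 75.5, 78.4 and 120.6 CPM in poor ones, and Th, the first enzyme of dopamine synthesis, overlapped in the same way. A gene is called here when rich and poor libraries do not overlap and the group means are at least 2-fold apart. Of the dopamine neuron list 0 of 14 genes were called higher and 1, Calb1, lower, where 0.683% and 1.82% of all genes were. The list's median log2 ratio was -0.12. Within treatments the median log2 difference was 1.28 in controls, 0.16 after levodopa and -0.60 after MPTP. Whether dopamine neurons supply the Ddc and Slc18a2 reads of the poor libraries was not tested.

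Across the 4 serotonin lists (synthesis, transport and breakdown, neuron factors, receptors; 42 genes, 40 of them past the filter on low counts), 7 genes were called higher in rich libraries and 0 lower. A gene was called when the 3 rich and 4 poor libraries did not overlap and the group means were at least 2-fold apart, which 0.683% of the 21821 genes were in the higher direction and 1.82% in the lower. Since the rule used these libraries, nothing is read from the difference between these shares. Besides Tph2, whose call the rule fixed, and Slc6a4 and Fev, the 7 were Gata3, En1, En2 and Gchfr.

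Among the transcription factors, Gata3, needed for serotonin neurons of the hindbrain, had 14.97, 25.7 and 14.9 CPM in rich libraries and 9.34, 3.04, 3.70 and 6.25 CPM in poor ones. En1, an engrailed homeobox gene of the midbrain and hindbrain border, had 9.43, 10.5 and 12.8 CPM in rich libraries and 0.416, 3.11, 3.53 and 7.18 CPM in poor ones, and its log2 ratio of 1.61 was 2.21 without MPTP 2. Its relative En2 had 8.20, 10.4 and 11.4 CPM in rich libraries and 2.42, 3.82, 2.41 and 5.43 CPM in poor ones, while the 2 libraries with high Gabra6 had 107 and 103 CPM. Thus En2 was also a gene of the libraries rich in cerebellar marks, and with these added to the poor group its log2 ratio of 1.51 turned to -1.90. Lmx1b, a LIM homeobox gene that both serotonin and midbrain dopamine neurons use, had 2.44, 6.497 and 4.15 CPM in rich libraries and 0.416, 4.27, 4.35 and 5.38 CPM in poor ones, so the groups overlapped. Gata2, Foxa2, Nkx2-2, Foxa1 and Sox14 overlapped as well. Insm1, a zinc finger gene of differentiating neuroendocrine cells and neurons, was below every poor library, at 2.15, 3.24 and 2.75 CPM against 5.88, 5.11, 5.18 and 4.12 CPM. Rich libraries lay below all poor ones, at any size, for 5.51% of all genes.

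The synthesis list had 2 genes called higher among 9, Tph2, whose call the rule fixed, and Gchfr. Of all genes 0.683% were called higher. Gchfr encodes the feedback regulator of GTP cyclohydrolase, the enzyme that starts the synthesis of tetrahydrobiopterin, the cofactor of tryptophan hydroxylase. It had 0.802, 1.61 and 1.20 CPM in rich libraries and 0.356, 0.262, 0.263 and 0.366 CPM in poor ones. The cyclohydrolase gene Gch1 had 4.71, 10.8 and 5.65 CPM in rich libraries and 0.876, 4.26, 4.10 and 5.01 CPM in poor ones, and the overlap rests on MPTP 2 lying above control 3. Pts, Spr, Qdpr and Pcbd1, the further genes of cofactor synthesis and recycling, overlapped, with log2 ratios from -0.39 to 0.41. The breakdown genes Maoa and Maob had log2 ratios of -0.03 and -0.23, also with overlap.

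Serotonin receptors, which sit on many target neurons, gave 0 calls among 12 measured members, with a median log2 ratio of -0.12. For Htr2c, Htr4 and Htr5a the rich libraries lay above all poor ones by less than 2-fold, a pattern shown by 6.36% of all genes. Htr2c had 140.2, 136.6 and 139.8 CPM in rich libraries and 97.8, 112, 116.7 and 119.1 CPM in poor ones. Htr1a, the receptor that serotonin neurons carry on their own cell bodies, had 17.9, 22.0 and 19.7 CPM in rich libraries and 14.96, 20.3, 11.3 and 10.3 CPM in poor ones. Levodopa 3 lay among the rich libraries and the other 3 poor libraries below them. Htr2b and Htr3b did not pass the filter and had at most 0.190 CPM in any of the 7 libraries.

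Transcription factors of brainstem and midbrain neurons were often higher in the Tph2-rich libraries. Of 27 measured members 12 were called higher and 0 lower, where 0.683% and 1.82% of all genes were. Their median log2 ratio was 1.03, against 0.002 over all genes tested. For 18 the rich libraries lay above all poor ones at any size, as for 6.36% of all genes. Within treatments the median log2 difference was 0.57 in controls, 1.08 after levodopa and 0.84 after MPTP. Only 1 of the 27 was at least 2-fold higher in all 3 treatments. The paired-box gene Pax5 had 9.92, 11.1 and 13.2 CPM in rich libraries and 0.0594, 4.49, 1.67 and 5.93 CPM in poor ones. Pax7, a mark of the dorsal midbrain, had 14.9, 22.4 and 15.5 CPM in rich libraries and 14.7, 0.741, 1.35 and 2.34 CPM in poor ones. The POU factor gene Pou4f2 had 10.6, 9.24 and 9.85 CPM in rich libraries and 8.39, 0.262, 0.702 and 0.864 CPM in poor ones. For Pax7, Pou4f2, Barhl1 and Tfap2b, control 1 lay below the rich libraries and well above the other 3 poor ones. Without control 1 the log2 ratios of Pax7, Pou4f2, Barhl1 and Tfap2b were 3.58, 4.02, 2.39 and 3.00, against 1.88, 1.96, 1.73 and 1.68 with it. En1, Pax5 and C1ql4 ran the other way, with control 1 the lowest of all 7. The poor libraries thus differed in which midbrain and hindbrain genes they lacked. The iroquois gene Irx2 had 23.6, 24.6 and 24.4 CPM in rich libraries and 9.78, 9.24, 10.4 and 16.9 CPM in poor ones. Irx3, Pax2, Pax3, Pax8, Pou4f3, Evx2 and Tal1 were also called higher. Of these, Pax2 and Pou4f3 were low, with means of 0.522 and 0.257 CPM in rich libraries and 0.168 and 0.07 CPM in poor ones. The Hox genes of the caudal hindbrain were close to absent, as 1 of 21 passed the filter and their sum was 0.312 to 0.609 CPM in rich libraries and 0.238 to 0.334 CPM in poor ones.

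Other transmitter systems of the brainstem differed by library. Called higher were 1 of 7 genes of the glycine list and 3 of 5 measured genes of the noradrenaline list, where 0.683% of all genes were. The noradrenaline list holds 8 genes, and 0 of either list were called lower. Slc6a5, the transporter of glycine neurons, had 10.2, 17.6 and 8.99 CPM in rich libraries and 0.683, 4.34, 1.39 and 2.42 CPM in poor ones, and 55.3 and 38.4 CPM in the 2 libraries with high Gabra6. Dbh, the enzyme that makes noradrenaline, had 2.96, 1.79 and 0.164 CPM in control 3, levodopa 1 and MPTP 3, against 0.0891, 0.116, 0 and 0.0879 CPM in poor libraries. The noradrenaline transporter gene Slc6a2 had 3.24, 2.01 and 0.149 CPM in rich libraries and 0.0445, 0.189, 0 and 0 CPM in poor ones. MPTP 3 lay below levodopa 3 there, so Slc6a2 was not among the genes called. Noradrenaline marks were thus clear in control 3 and levodopa 1 and near the floor in MPTP 3, which nonetheless had 65.8 CPM of Tph2. Of the raphe cotransmitter list 0 of 20 genes were called higher, and Gal and Pdyn, 2 neuropeptide precursors, were called lower. Of all genes 0.683% were called higher and 1.82% lower. Slc17a8, the vesicular glutamate transporter found in many serotonin neurons, had 4.54, 21.3 and 7.59 CPM in rich libraries and 6.44, 5.03, 4.80 and 2.11 CPM in poor ones, overlapping through control 3.

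**Figure D3:**
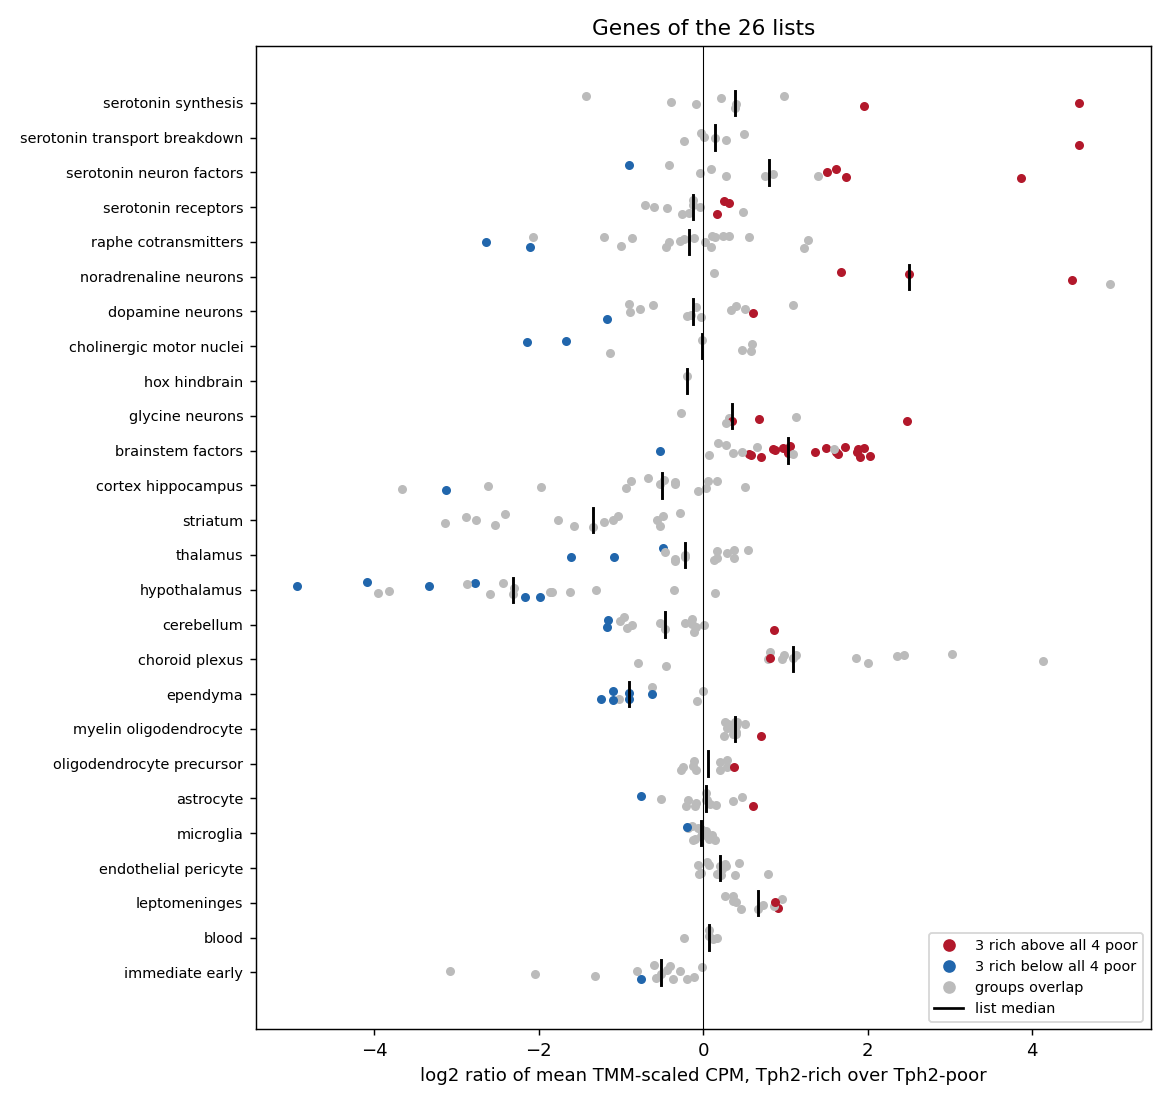
Log2 ratio of mean TMM-scaled CPM, Tph2-rich over Tph2-poor, for each measured gene of the 26 lists, with list medians as bars. Brainstem factors lie mostly above 0 (median 1.03) and hypothalamus genes mostly below (median -2.32), and colour marks genes whose 3 rich libraries lie above or below all 4 poor ones.

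The 15 largest higher ratios among named genes, outside the serotonin lists and with a mean of at least 1 CPM, were led by Tfap2d, an AP-2 transcription factor gene (chromosome 1, 19103022 to 19173948). It had 19.9, 12.3 and 26.5 CPM in rich libraries and 5.51, 1.31, 1.71 and 3.85 CPM in poor ones, a log2 ratio of 2.66. Slc6a5 followed at 2.47, then the apelin receptor gene Aplnr at 2.00, Pou4f2 at 1.96, the retinoic acid hydroxylase gene Cyp26b1 at 1.91, Pax5 at 1.91, Pax7 at 1.88 and the LIM homeobox gene Lhx4 at 1.85. Shisa3, Barhl1, Tfap2b, C1ql4, Mab21l1, the betaine and GABA transporter gene Slc6a12 and the myocilin gene Myoc made up the rest, with ratios of 1.75 and less. Cyp26b1, Slc6a5, Barhl1, Tfap2b and Mab21l1 reached higher levels in the 2 libraries with high Gabra6 than in any rich library. With these libraries counted as poor, the log2 ratios of Slc6a5 and Mab21l1 turned to -0.48 and -0.04.

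Of 19 hypothalamus genes 6 were called lower, 0 higher and 13 neither, where 1.82% of all genes were called lower and 0.683% higher. Their median log2 ratio was -2.32. Within treatments the median log2 difference was -0.67 in controls, -3.54 after levodopa and -1.44 after MPTP. Oxt, the oxytocin precursor (chromosome 2, 130574519 to 130577054), had 0.148, 0.205 and 3.29 CPM in rich libraries and 17.7, 55.7, 70.6 and 5.18 CPM in poor ones. Avp, the vasopressin precursor (chromosome 2, 130580620 to 130582588), had 0.282, 0.0587 and 3.82 CPM in rich libraries and 6.25, 55.5, 27.7 and 4.77 CPM in poor ones. MPTP 3 was the highest rich library for both peptides, MPTP 2 the lowest poor one. The log2 ratios were -4.94 for Oxt and -4.09 for Avp, and -7.72 and -7.11 without MPTP 3, while that of Avp was -3.22 without levodopa 3. The orexin precursor gene Hcrt overlapped, at 0.208, 2.27 and 16.6 CPM in rich libraries and 0.0594, 42.3, 69.6 and 25.6 CPM in poor ones, because control 1 had almost none.

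The 10 largest lower ratios were those of Oxt, Avp, Gdf1, the antisense RNA Dlx1as, the zinc finger gene Sp8 and 5 homeobox genes, Dlx1, Dlx2, Dlx6, Lhx6 and Vax1. Dlx1 had 1.77, 0.249 and 4.92 CPM in rich libraries and 19.1, 31.3, 28.4 and 7.97 CPM in poor ones. Dlx2, Dlx6, Lhx6, Sp8 and Vax1 had log2 ratios from -3.47 to -2.86, each with every rich library below every poor one. Without MPTP 3 the log2 ratios of Dlx1, Dlx2, Sp8, Vax1 and Dlx1as were -4.43, -4.61, -3.91, -4.97 and -3.85, and that of Dlx6 was -3.67 without control 3. Dlx1as is antisense to Dlx1, and since the strand setting of the counting is not given, its reads cannot be told apart from those of Dlx1. Gdf1, at 1.95, 1.44 and 1.77 CPM in rich libraries and 2.88, 57.0, 55.1 and 3.21 CPM in poor ones, shares its interval (chromosome 8, 70315775 to 70331592) with Cers1, so its value is uncertain. All 6 inhibitor libraries lay above all 3 rich libraries for 8 of these 10 genes, where 15.2% of all 21821 genes did so, and below them for all 15 of the largest higher ones, where 15.1% of all genes did so. The rich libraries are those the rule used, so nothing is read from these counts.

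**Figure D4:**
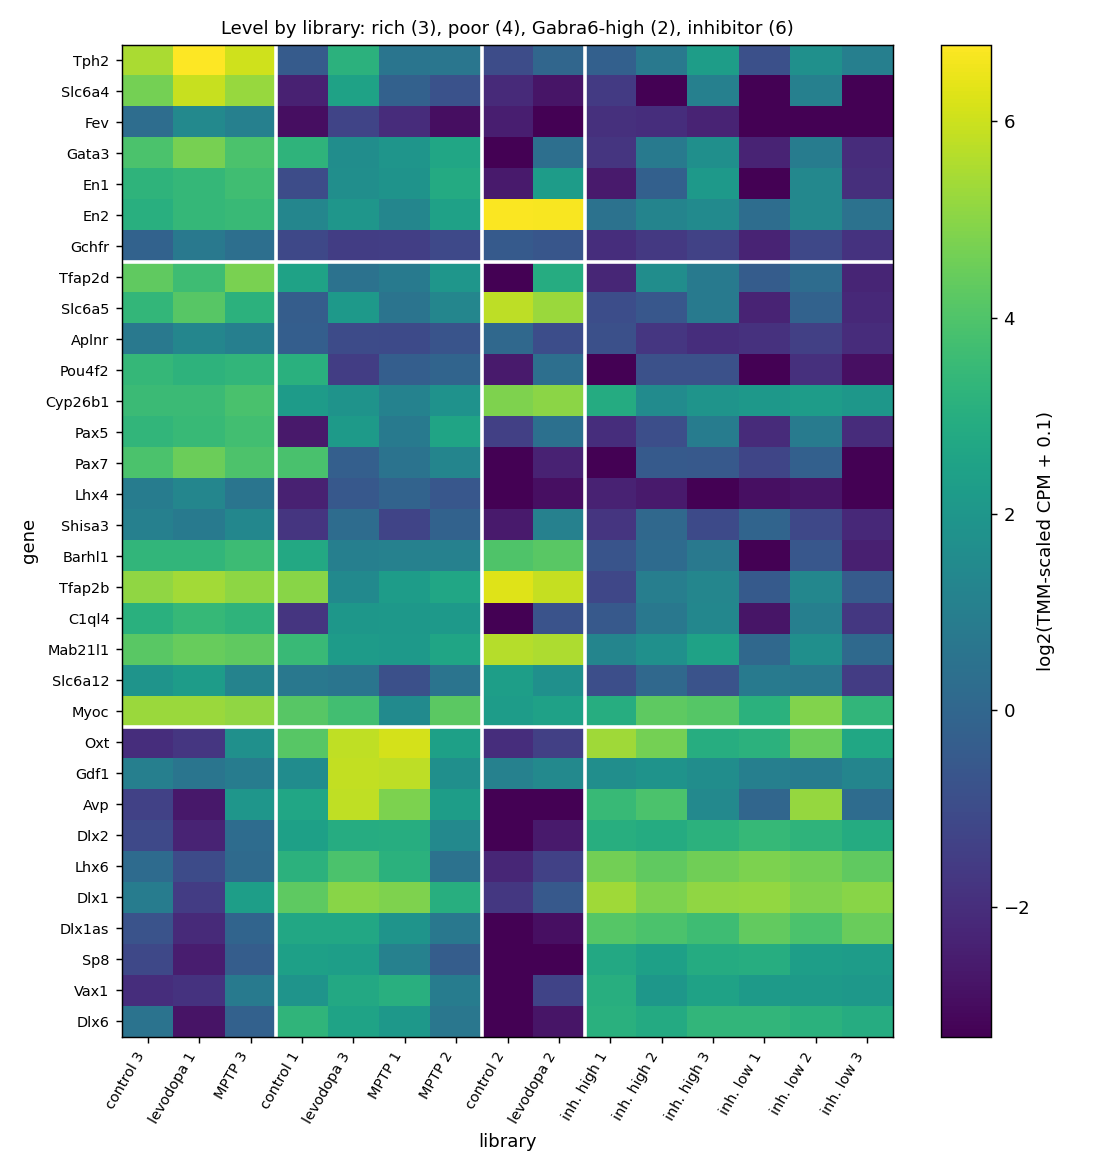
Level of 32 genes (rows: the 7 serotonin list genes called, then the 15 largest higher and the 10 largest lower ratios) in the 15 libraries (columns, with white lines between Tph2-rich, Tph2-poor, Gabra6-high and inhibitor libraries), as log2 of TMM-scaled CPM plus 0.1. Control 1 is the brightest poor library for Pou4f2, Pax7, Barhl1 and Tfap2b, and En2, Slc6a5 and Tfap2b are also bright in control 2 and levodopa 2.

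Markers of other regions and cell types were measured beside these results. The striatum list had 0 of 15 genes called and a median of -1.34, and its sum was 491 to 742 CPM in rich libraries and 420.3 to 3812 CPM in poor ones, with control 1 the highest. Called lower were 1 of 16 cortex and hippocampus genes (Fezf2), 2 of 15 of the thalamus list and 3 of 10 of the ependyma list. So were 2 of 15 of the cerebellum list and 2 of 7 of the list for cholinergic and motor nuclei (Isl1 and Ecel1). Of all genes 1.82% were called lower. For 6 of the 10 ependyma genes the rich libraries lay below all poor ones at any size, as for 5.51% of all genes. The choroid plexus list had 0 of 15 called and a median of 1.10, which rests on control 3, where Ttr had 857 CPM, while levodopa 1 and MPTP 3 had 1.496 and 1.92 CPM and the poor libraries 45.3, 11.4, 1.20 and 7.64 CPM. Lists for astrocytes, microglia, oligodendrocytes and their precursors, vessels, leptomeninges, blood and immediate early genes had 0 calls. The part that differences in region between these tissue pieces have in any single gene's value was not tested.

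Within each treatment the rule sets Tph2 higher in the rich library, so the sizes there are a description. On a log2 scale with a pseudocount of 0.1 CPM, Tph2 was higher in the rich library by 5.91 in controls, 3.62 after levodopa and 5.42 after MPTP. The values were 7.06, 3.43 and 5.67 for Slc6a4, and 3.24, 2.68 and 3.49 for Fev. For Gata3 they were 0.68, 3.04 and 1.57, and for En1 4.21, 1.72 and 1.24. At least 2-fold higher in all 3 treatments were 28 of 21821 genes (0.128%), among them the 3 markers, En1, En2, Slc6a5, Pax5, Tfap2d, Cyp26b1, Aplnr, C1ql4, Slc6a12 and Myoc. At least 2-fold lower in all 3 were 136 genes (0.623%), among them Oxt, Avp, Dlx1, Dlx2, Dlx6, Lhx6, Vax1, Sim1, Nkx2-1, Isl1 and Fezf2.

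The treatments themselves, tested over libraries with edgeR's quasi-likelihood test, showed no difference in serotonin genes beyond the spread. The spread includes the 2 libraries with high Gabra6. In the MPTP libraries Tph2 averaged 22.9 ± 37.1 CPM, against 15.4 ± 25.8 CPM in control libraries (SD over 3 libraries each). Its log2 fold change was 0.57, with an SE of 1.86 and an edgeR adjusted p of 0.932. After levodopa it averaged 39.8 ± 60.7 CPM, against 22.9 ± 37.1 CPM after MPTP alone, and the log2 fold change was 0.80, with an SE of 1.87 and an edgeR adjusted p of 0.960. In every one of these groups 1 library held most of the Tph2 reads, and each group had at least 1 library at 1.48 CPM or less. Leaving out 1 library at a time moved the Tph2 fold change of MPTP against control from -3.41, without MPTP 3, to 5.39, without control 3. For levodopa against MPTP it moved from -2.23, without levodopa 1, to 4.78, without MPTP 3. Slc6a4 had log2 fold changes of 0.61 and 0.77 and Fev of 0.81 and 0.42 in these comparisons, with edgeR adjusted p from 0.894 to 0.971. Over all genes, edgeR called 0 of 21821 (0.0%) in both comparisons, and DESeq2 called 51 for MPTP and 2 for levodopa. Unadjusted p lay under 0.05 for 1445 genes (6.62%) with MPTP and for 645 (2.96%) with levodopa. P-values measure the spread between these libraries, which may be technical.

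The 6 inhibitor libraries, which played no part in choosing the groups, were used to ask whether other genes follow Tph2 there. Tph2 had 0.766, 1.602 and 4.81 CPM at the high dose and 0.456, 3.23 and 1.95 CPM at the low dose, below every rich library. Slc6a4 had 0.228, 0 and 2.04 CPM at the high dose and 0, 2.03 and 0 CPM at the low dose. The libraries highest in Tph2, high dose 3 and low dose 2, were also the only 2 of the 6 above 1 CPM of Slc6a4. Low dose 3 and high dose 2 had 111 and 96 Tph2 reads with 0 reads of Slc6a4, which allows at most 3.38 and 3.92 Slc6a4 reads per 100 Tph2 reads (exact 95% interval). Fev had 10, 9 and 6 reads in high dose 1, 2 and 3 and 0 reads in each low-dose library. These few reads were not in the order of Tph2, as low dose 2 had 199 Tph2 reads. Fev was not tested.

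In an edgeR fit of the counts on log2 Tph2 with dose as covariate, the adjusted threshold was met by 0 of 20194 genes (0.0%). Unadjusted p lay under 0.05 for 790 (3.91%), and DESeq2 called 29 genes with a positive and 11 with a negative slope. En1 had the steepest slope of the serotonin lists, 2.41 (SE 0.34, edgeR adjusted p = 0.802), and its level was 0.0652, 0.768 and 4.34 CPM at the high dose and 0, 2.53 and 0.158 CPM at the low dose. That slope was 4.12 without high dose 3. Slc6a4 had a slope of 1.87 (SE 0.61, edgeR adjusted p = 1), which was 9.35 without high dose 1. Gata3 had 1.39, Slc18a2 0.79, Lmx1b 0.67 and Ddc 0.49, and that of Lmx1b was 0.306 without low dose 2. The dopamine neuron genes Slc6a3, Pitx3 and Chrna6 had slopes of 2.18, 1.93 and 1.81, although none of them separated rich from poor libraries. In the inhibitor libraries Slc6a3 followed the order of Tph2 within each dose. It had 0.896, 20.3 and 78.05 CPM for the high dose and 0.607, 47.1 and 1.35 CPM for the low dose. Across doses, high dose 2 lay above low dose 3 for Slc6a3 and below it for Tph2. DESeq2 called En1, Slc18a2, Gata3, Ddc, Slc6a3 and Pax5, with adjusted p from 2.5e-07 to 0.0301.

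By sign alone, slopes on Tph2 in the inhibitor libraries were positive for 58 of the 85 genes called higher in rich libraries outside the serotonin lists and measured here (68.2%), for 135 of 347 called lower (38.9%) and for 10305 of all 20194 genes (51.0%). In the serotonin lists, positive slopes were found for 11 of 11 neuron factors (median 0.53), 8 of 8 synthesis genes, 6 of 7 transport and breakdown genes and 8 of 12 receptors. Of the brainstem factors 19 of 22 had a positive slope (median 0.48), of the dopamine neuron list 13 of 14, of the hypothalamus list 8 of 17 and of the cortex list 1 of 16. Positive slopes were as common in lists of other regions and cell types, with 15 of 15 genes each for striatum and choroid plexus, 14 of 14 for myelin, 14 of 15 for thalamus and 12 of 14 for astrocytes. Genes are not independent replicates, and these shares are a description of 6 libraries.

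**Figure D5:**
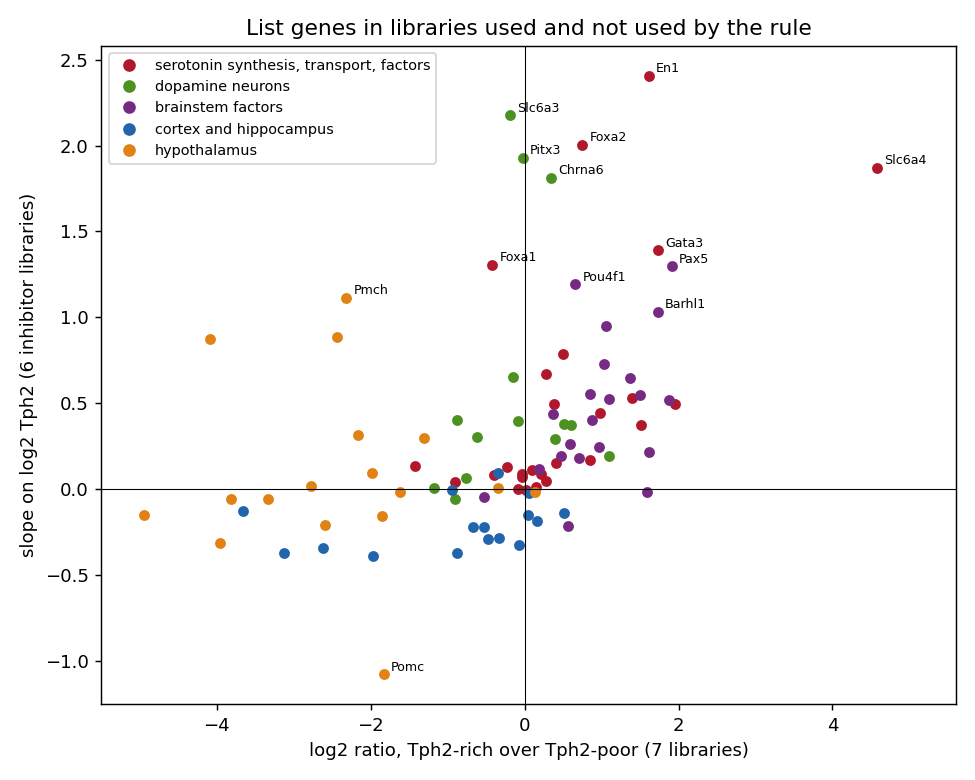
Slope on log2 Tph2 over the 6 inhibitor libraries (y axis) against the log2 ratio of Tph2-rich over Tph2-poor libraries (x axis) for 94 list genes. En1, Slc6a4, Gata3, Pax5 and Barhl1 are above 0 on both axes, while Slc6a3, Pitx3 and Chrna6 have steep slopes with ratios near 0.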

How the data were processed

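Strand-specific mRNA sequencing was measured in 15 mouse brain libraries. The deposited values are raw read counts per gene symbol, 45777 symbols in each file. The submitters' processing notes name StringTie 2.1.3b, HISAT2 2.1.0, Trimmomatic and bcl2fastq 2.20.0, and the build GRCm38/mm10. Which annotation and which strand setting the counting had is not given in these sources.

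Groups of treatment came from the sample labels, and the groups of Tph2-rich and Tph2-poor libraries from CPM computed on library totals. The members, the 26 gene lists (353 of 355 entries found) and the tests were chosen with earlier results of these data known. Levels are TMM-scaled CPM. Group means under the level of 3 reads per library were raised to it before a ratio was taken. Treatment comparisons used 1 quasi-likelihood fit of all 15 libraries in edgeR 4.0.16 (R 4.3.3) with filterByExpr by group, and slopes used the 6 inhibitor libraries alone, both with Benjamini-Hochberg adjustment at 0.05. Standard errors are the log2 value over the root of its F statistic. DESeq2 1.42.0 was an alternative. The procedures were tested on simulated data.

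Named were all serotonin list genes, the 15 largest higher and 10 largest lower ratios without overlap at a mean of 1 CPM or more (predicted genes left out), up to 4 separated genes of each other list, and Gabra6, Slc6a3, Th, Hcrt and Nr4a2. Other list genes printed, such as Slc6a2, Slc17a8, Ttr, Pitx3 and Chrna6, were chosen after their values were seen. Coordinates and sequences are RefSeq's on GRCm38.p6. No pair of libraries of the same group agreed within sampling noise (chi-square per degree of freedom at least 29.3), so none was counted as a duplicate. Pairs across groups were not compared.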

Additional observations from a re-analysis of the deposited data

Results flagged for a closer look

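Named genes were looked at when they passed the filter and their highest Tph2-poor library reached 1 CPM. Of these 93 genes, 13 had 1 of the 4 Tph2-poor libraries standing apart from the other 3 by Dixon's criterion (a gap to the nearest library that is most of the range). The criterion would flag about 1 in 20 by chance if levels were normally distributed and genes independent, which was not tested. The rule also set an upper limit on Tph2 in these libraries. The number flagged is therefore not compared with chance. Levels are TMM-scaled CPM. Levodopa 3 stood above the other poor libraries for Tph2 (8.85 CPM, with the next at 1.48), Slc6a4 (5.54 CPM) and the cerebellar gene Gabra6 (3.18 CPM).

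Control 1 stood above the other poor libraries for 6 genes. They were Pou4f2 (8.39 CPM), Pax7 (14.7 CPM), Barhl1 (6.77 CPM), Tfap2b (31.8 CPM), Sox14 (6.28 CPM) and Htr1d (7.18 CPM). It stood below them for C1ql4, at 0.193 CPM with the next at 4.02. MPTP 1 stood above the others for Maob (60.4 CPM) and below them for Slc6a12 (0.454 CPM). MPTP 2 stood above them for Tph1, the tryptophan hydroxylase of gut and pineal gland (1.73 CPM, with the next at 0.312).

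Among the 26 lists, the dopamine neuron list had medians of opposite sign within treatments, both of at least 0.5. Its median log2 difference of the Tph2-rich from the Tph2-poor libraries was -0.60 after MPTP and 1.28 in controls. The difference between these values was not tested.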

How the results depend on the processing

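In all, 664 values were recomputed under other settings. For the 32 genes chosen for not overlapping, the sign of the log2 ratio is fixed when a library is left out and says nothing about stability. With the 2 Gabra6-high libraries added as poor it reversed for En2 (-1.90), Slc6a5 (-0.48) and Mab21l1 (-0.042). Against 149 genes called higher and 398 lower, a minimum of 5 CPM in 3 libraries gave 33 and 63, a 4-fold limit 23 and 94, and the added Gabra6-high libraries 102 lower. Leaving out 1 library gave 175 to 249 higher and 448 to 645 lower, since fewer libraries overlap less.

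DESeq2 called 15 genes higher and 36 lower for MPTP against control, 1 and 1 for levodopa against MPTP, and 29 and 11 for the slope, where edgeR called 0. The cause was not tested. With 1 library left out, edgeR called 0 genes for MPTP against control, and for levodopa against MPTP 0 to 1 lower, the 1 without levodopa 3. For the slope it called 0 to 1 higher, the 1 without high dose 2. The log2 fold change of Tph2 for MPTP against control was -0.0017 without the 2 Gabra6-high libraries, and with 1 library left out it ran from -3.41 to 5.39, that of Slc6a4 from -3.72 to 6.83 and that of Fev from -2.21 to 3.65. For levodopa against MPTP the ranges were -2.23 to 4.78, -2.21 to 5.11 and -2.15 to 3.44.

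The replicate numbers did not pair the libraries. Deviations of equal numbers correlated at 0.239, 0.0522 and 0.0467 between MPTP and control and at -0.0441, 0.0579 and -0.297 between levodopa and MPTP. With the replicate block, edgeR called 0 genes in both comparisons, with 1455 and 615 at an unadjusted p under 0.05. Depth limits Fev, Dbh and Slc6a2 in the poor libraries, where 3 reads are at most 0.0452 CPM.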
